A study of Sus scrofa with 10 samples.

Results

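Muscle loses protein through the ubiquitin-proteasome and the autophagy-lysosome systems. FoxO transcription factors switch on genes of both systems when insulin and IGF1 signalling through AKT is low, and glucocorticoids raise several of the same genes. FBXO32 (atrogin-1) and TRIM63 (MuRF1) are the muscle ubiquitin ligases best known as targets of this control, and myostatin, the product of MSTN, restrains muscle growth.

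The 9 genes described here are FBXO32, TRIM63, FBXO30, FOXO1, FOXO3, KLF15, MSTN, DDIT4 and CTSL, taken by name for their known part in muscle protein breakdown and growth restraint, out of 25880 genes in the table. Longissimus lumborum muscle came from 5 Alentejano (AL) and 5 Bísaro (BI) pigs, purebred castrated males of 2 Portuguese breeds that were kept free-range and fed commercial diets near their voluntary intake. The labels give 150 kg as the carcass weight of every pig and give no age. Each pig gave 1 RNA-seq library, so that a pig was 1 sample, and is called here by its breed and animal number. The questions were whether the count of each gene differed between the breeds and how far the other genes followed FBXO32 from pig to pig.

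All values are normalised counts, the reads counted on a gene divided by the size factor of the pig. The reads assigned to genes numbered 2298045 to 3027364 per AL pig and 2461652 to 3343194 per BI pig, and the 9 genes together took 0.00440% of them. The study reports many times more sequenced reads per sample, and why so few were assigned to genes was not tested. The 10 highest genes took 48.5% of the reads in AL44 and 55.1% to 60.3% in the other pigs, so results that rest on AL44 are also given without it. After scaling, 1 read was worth 0.824 to 1.13 normalised counts. Genes with a mean of at least 10 normalised counts over the 10 pigs were tested between the breeds, which left 3566 genes. FBXO32, TRIM63, FOXO3, KLF15 and DDIT4 were among them, while FBXO30, FOXO1, MSTN and CTSL lay under this minimum. Differences are given on the scale of log2(normalised count + 1), AL minus BI, and this scale understates the change of low genes. Of the skeletal muscle fibre markers, 7 of 12 had a symbol in the table and all 7 had a mean of at least 10. Fewer cells of a type and less RNA per cell cannot be told apart in such bulk samples.

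The strand of the counted reads limits what each value means. The libraries were stranded by the study's methods, and the strand setting used for counting is not given in the sources used here. The gene with the highest mean, RABEP2, had 337001 normalised counts, whereas ATP2A1, the calcium pump of fast fibres, which overlaps it by 49 bases on the opposite strand, had 4718. CTSF likewise had 153260 against 1394 for ACTN3, a fast fibre actinin that lies 127 bases away on the opposite strand. With the strand setting unknown, reads from a gene and from its opposite strand cannot be told apart. The values may be counts of the strand opposite to each gene, which was not tested. Every value below is the count assigned to the gene in this table and need not be the level of its transcript. No annotated gene lay on the opposite strand within 5 kb of FBXO32, TRIM63, FBXO30, FOXO3, DDIT4 or CTSL. This does not show which strand the reads counted on these genes came from. A non-coding gene, LOC102160118, lay 573 bases from FOXO1, another, LOC102164647, lay 90 bases from KLF15, and C15H2orf88 overlapped MSTN by 158 bases.

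The members lie on 8 chromosomes of Sscrofa11.1 in RefSeq annotation release 106. FBXO32 spans chr4:15895875-15925929 on the plus strand and TRIM63 chr6:83493200-83507471 on the minus strand. FOXO3 spans chr1:74626673-74760323 on the plus strand, FOXO1 chr11:15317222-15410059 on the minus strand and KLF15 chr7:53877813-53890558 on the minus strand. FBXO30 is at chr1:19756232-19777621 (plus), MSTN at chr15:94623526-94628440 (minus), DDIT4 at chr14:75117708-75119907 (plus) and CTSL at chr10:27668523-27674705 (minus).

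FoxO factors, the glucocorticoid receptor and E-box binding factors are the regulators usually named for these genes, so the bases before the annotated starts of FBXO32, TRIM63 and FOXO3 are shown with the motifs that were searched. FBXO32 and TRIM63 are, of the 3 ligases among the 9 genes, the pair with the higher counts, and FOXO3 is the member with a FoxO motif in this window. Each line gives the 250 bases before the RefSeq gene start, 5′ to 3′ on the strand of the gene, from Sscrofa11.1. Capitals mark any match to the FoxO motif GTAAACA, the insulin response motif CAAAACA, the glucocorticoid receptor half-site AGAACA or the E-box CANNTG, on either strand.
FBXO32 (chr4:15895625-15895874, plus strand): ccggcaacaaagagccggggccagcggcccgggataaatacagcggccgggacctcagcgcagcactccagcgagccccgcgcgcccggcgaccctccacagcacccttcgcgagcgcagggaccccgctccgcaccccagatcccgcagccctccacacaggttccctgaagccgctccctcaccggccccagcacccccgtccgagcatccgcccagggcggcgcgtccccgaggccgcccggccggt
TRIM63 (chr6:83507472-83507721, minus strand): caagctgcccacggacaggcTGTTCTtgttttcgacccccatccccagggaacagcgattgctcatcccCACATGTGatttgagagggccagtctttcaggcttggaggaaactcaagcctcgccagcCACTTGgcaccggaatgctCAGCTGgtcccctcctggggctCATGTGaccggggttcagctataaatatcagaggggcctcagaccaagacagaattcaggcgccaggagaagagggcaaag
FOXO3 (chr1:74626423-74626672, plus strand): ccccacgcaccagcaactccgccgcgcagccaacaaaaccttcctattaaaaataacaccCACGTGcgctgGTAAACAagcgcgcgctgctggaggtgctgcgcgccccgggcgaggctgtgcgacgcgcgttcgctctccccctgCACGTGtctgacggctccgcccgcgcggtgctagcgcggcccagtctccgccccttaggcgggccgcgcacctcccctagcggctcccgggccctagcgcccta

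Over the 300 bases from 250 before to 50 after the start, the FBXO32 window held none of these 4 motifs. The TRIM63 window held 5 E-box matches, of which those beginning at -181 and -179 overlap, and 303 of 19556 promoters (1.55%) held at least as many. It also held the half-site AGAACA at -230, on the strand opposite to the gene and therefore printed as its reverse complement. FOXO3 had GTAAACA at -179, with E-boxes at -190 and -104. GTAAACA was present in 2.65% of all promoters and in 1 of the 9 members, CAAAACA in 4.8% and in 0 members, AGAACA in 12.1% and in 2 members (TRIM63 and MSTN), and CANNTG in 67.8% and in 5 members. These matches describe letters of the reference only, and 0 matches says only that the letters are not in this window.

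FBXO32 had the clearest breed difference of the 9 genes and was higher in AL. Atrogin-1 is the substrate-binding subunit of a ubiquitin ligase that is found in striated muscle. The AL pigs had 32.1 (AL44), 35.3 (AL46), 51.8 (AL49), 46.3 (AL52) and 46.4 (AL63) normalised counts. The BI pigs had 32.9 (BI25), 20.9 (BI34), 20.7 (BI36), 25.1 (BI37) and 19.0 (BI42). 4 AL pigs lay above every BI pig, and the groups overlapped only in that AL44 lay below BI25. The means were 42.4 ± 8.29 in AL and 23.7 ± 5.61 in BI (SD, n = 5 each). These values rest on 34 to 52 reads in an AL pig and 18 to 40 in a BI pig.

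The difference in FBXO32 was 0.82 on the log2 scale (SE 0.23, 95% interval 0.32 to 1.31), a fold of 1.76 (1.25 to 2.48). The exact two-sided permutation test over all divisions of the pigs into 5 and 5 gave p = 0.0159, where 0.00794 is the smallest p it can give, and 0.515 after adjustment over all genes tested. In limma, fitted to all 3566 genes, the unadjusted p was 0.00321 and the adjusted p (Benjamini-Hochberg over these genes) was 0.234, so FBXO32 did not pass the adjusted threshold of 0.05. Its adjusted p ran from 0.104 to 0.388 over the other settings and tools and from 0.0774 (without AL44) to 0.441 with 1 pig left out, and the unadjusted limma p stayed below 0.05 with any 1 pig left out. The study reported only a tendency for FBXO32 to be higher in AL in these reads, short of its adjusted threshold. It also reported a tendency in the same direction by qPCR in the same pigs. The values here come from the same reads, so that they are not independent evidence of it.

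Across all genes tested, 0.028% passed the adjusted threshold, which was 1 gene, INTS11, higher in BI. This count was 38 without AL44, 4 without AL52, 4 without BI37 and 3 without BI36, and 0 of the 5 members tested were among the called genes in any of these. An unadjusted p under 0.05 was reached by 4.63% of genes with a higher value in AL and by 3.93% with a higher value in BI. Of the 5 members tested, FBXO32 and TRIM63 reached it, both higher in AL. By sign alone, 4 of the 5 were higher in AL, against 47% of all genes. The members were picked by name with results of these pigs known, so these shares describe them and are no test of the list.

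**Figure D1:**
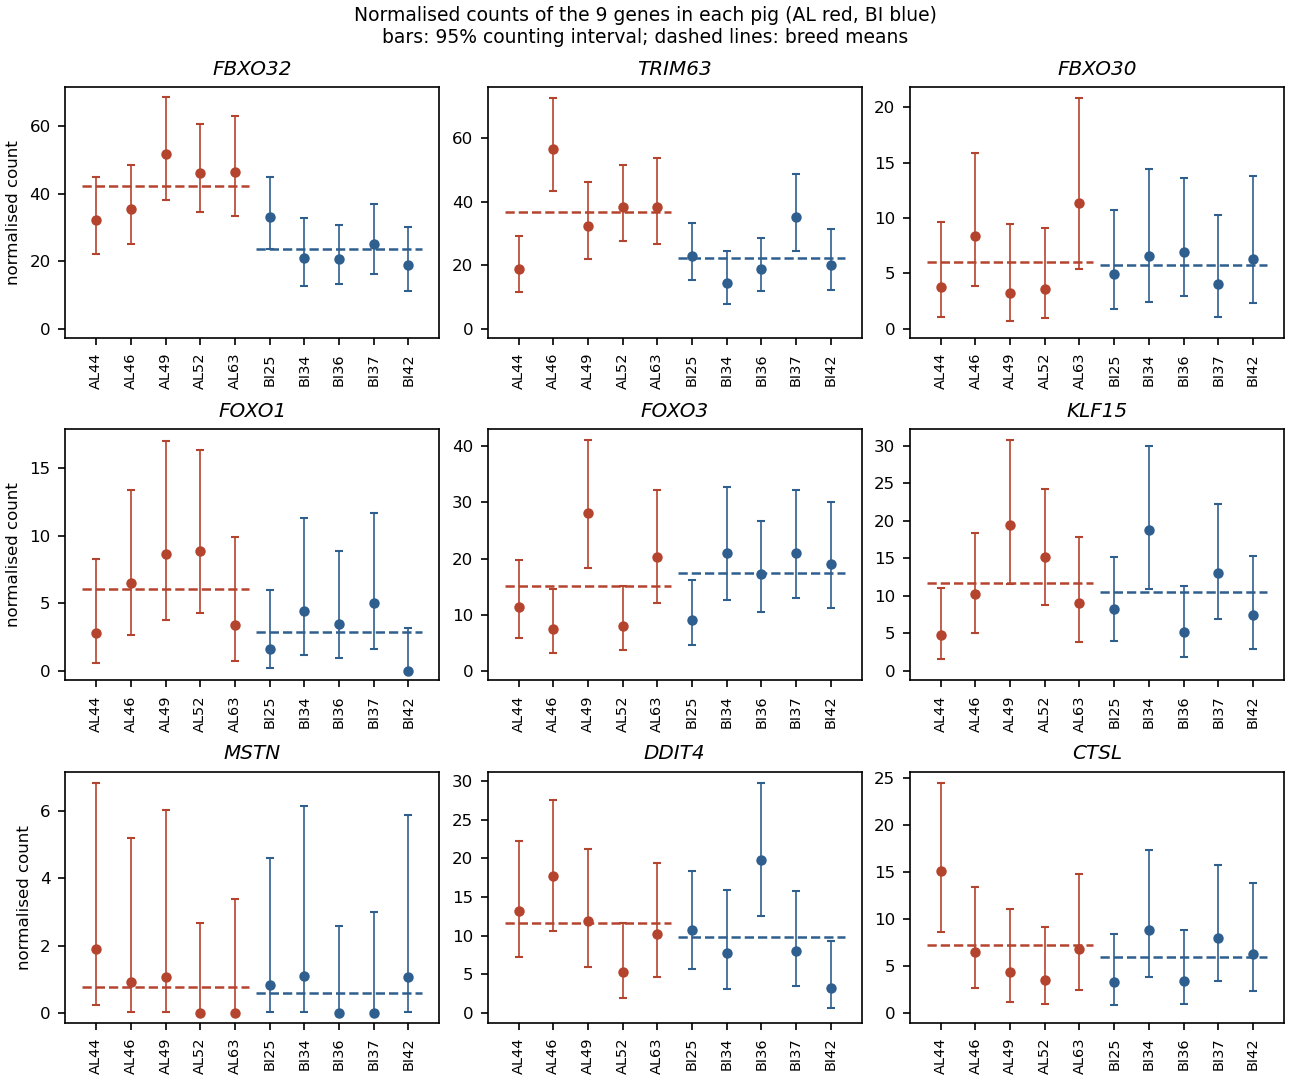
Normalised count of each of the 9 genes (y axis, a separate linear scale per panel) in each pig (x axis), AL in red and BI in blue. Bars are exact 95% Poisson intervals, or reach up to 3 reads for a count of 0, and cover counting error only, and dashed lines are breed means. In FBXO32 4 AL pigs sit above every BI pig, while in the other panels the breeds overlap more.

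TRIM63 had a higher mean in AL, with more overlap. MuRF1 is a RING-type ubiquitin ligase that marks myosin and other thick filament proteins for breakdown. In AL it had 18.9 (AL44), 56.7 (AL46), 32.4 (AL49), 38.2 (AL52) and 38.5 (AL63) normalised counts. In BI it had 23.1 (BI25), 14.3 (BI34), 19.0 (BI36), 35.1 (BI37) and 20.1 (BI42). AL46, AL52 and AL63 lay above every BI pig, while AL44 was below 4 of the BI pigs. The means were 36.9 ± 13.6 in AL and 22.3 ± 7.80 in BI (SD, n = 5 each), a log2 difference of 0.68 (SE 0.31, 95% interval 0.02 to 1.34) or a fold of 1.60. The exact permutation p was 0.0873 and the limma p was 0.0434 unadjusted and 0.561 adjusted. With 1 pig left out, the unadjusted limma p was 0.00622 without AL44, stayed under 0.05 without BI37, and lay above it, up to 0.122, without any of the other pigs.

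FBXO30, a ubiquitin ligase subunit (MUSA1) known from denervated muscle, was counted at 3 to 10 reads per pig. Its AL values were 3.78 (AL44), 8.37 (AL46), 3.24 (AL49), 3.56 (AL52) and 11.3 (AL63), and its BI values were 4.94 (BI25), 6.61 (BI34), 6.90 (BI36), 4.01 (BI37) and 6.34 (BI42). The BI pigs all lay inside the AL range. The log2 difference was -0.06 (95% interval -0.94 to 0.82, limma without the minimum count), with an exact permutation p of 0.865. A difference between the breeds was not detectable at these counts.

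The FoxO factors themselves did not follow one pattern. FOXO1, which is induced in fasted muscle, had 2.83 (AL44), 6.51 (AL46), 8.63 (AL49), 8.89 (AL52) and 3.39 (AL63) normalised counts in AL. In BI it had 1.65 (BI25), 4.41 (BI34), 3.45 (BI36), 5.01 (BI37) and 0 (BI42), where a count of 0 allows up to 3.17 normalised counts (3 reads). AL46, AL49 and AL52 lay above every BI pig, and AL44 and AL63 within the BI range. The means were 6.05 ± 2.84 and 2.90 ± 2.06 (SD, n = 5 each) and rest on 31 and 15 reads. The log2 difference of 0.995 (95% interval -0.06 to 2.05) had an exact permutation p of 0.0952, and ran from 0.31 with a pseudocount of 10 to 1.71 with one of 0.1.

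FOXO3, the FoxO factor that drives FBXO32 and autophagy genes in wasting muscle, overlapped widely between the breeds. It had 11.3 (AL44), 7.44 (AL46), 28.1 (AL49), 8.01 (AL52) and 20.4 (AL63) normalised counts in AL and 9.06 (BI25), 20.9 (BI34), 17.2 (BI36), 21.0 (BI37) and 19.0 (BI42) in BI. The highest and the lowest pig were both AL, and BI25 stood below the other BI pigs. The means were 15.0 ± 8.93 in AL and 17.5 ± 4.95 in BI (SD, n = 5 each), a log2 difference of -0.32 (95% interval -1.14 to 0.50). The limma adjusted p was 0.872 and the exact permutation p was 0.437.

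KLF15 and DDIT4 are glucocorticoid-induced genes of muscle, the first a transcription factor of amino acid breakdown and the second (REDD1) an inhibitor of mTORC1. KLF15 had 4.72 (AL44), 10.2 (AL46), 19.4 (AL49), 15.1 (AL52) and 9.05 (AL63) normalised counts in AL and 8.24 (BI25), 18.7 (BI34), 5.17 (BI36), 13.0 (BI37) and 7.39 (BI42) in BI. DDIT4 had 13.2 (AL44), 17.7 (AL46), 11.9 (AL49), 5.34 (AL52) and 10.2 (AL63) in AL and 10.7 (BI25), 7.71 (BI34), 19.8 (BI36), 8.02 (BI37) and 3.17 (BI42) in BI. In both genes the breeds covered nearly the same range, and BI36 was at once the highest pig in DDIT4 and the lowest of its breed in KLF15. The log2 difference was 0.14 in KLF15 (95% interval -0.75 to 1.02, exact permutation p = 0.762) and 0.32 in DDIT4 (-0.60 to 1.24, exact permutation p = 0.524). The limma adjusted p was 0.952 and 0.893.

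MSTN and CTSL, the genes of the growth inhibitor myostatin and the lysosomal protease cathepsin L, had low counts. MSTN was counted with 7 reads in all, 2 in AL44 and 1 each in AL46, AL49, BI25, BI34 and BI42, and with 0 in AL52, AL63, BI36 and BI37. Both breed sums, 4 and 3 reads, are near the 3 reads that a count of 0 allows, so that its log2 difference of 0.11 (95% interval -0.74 to 0.96, exact permutation p = 0.762) rests on single reads and no direction is read from it. CTSL had 15.1 (AL44), 6.51 (AL46), 4.32 (AL49), 3.56 (AL52) and 6.79 (AL63) in AL and 3.29 (BI25), 8.81 (BI34), 3.45 (BI36), 8.02 (BI37) and 6.34 (BI42) in BI. AL44 stood apart, and without it the log2 difference went from 0.18 (95% interval -0.71 to 1.06, exact permutation p = 0.667) to -0.10.

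**Figure D2:**
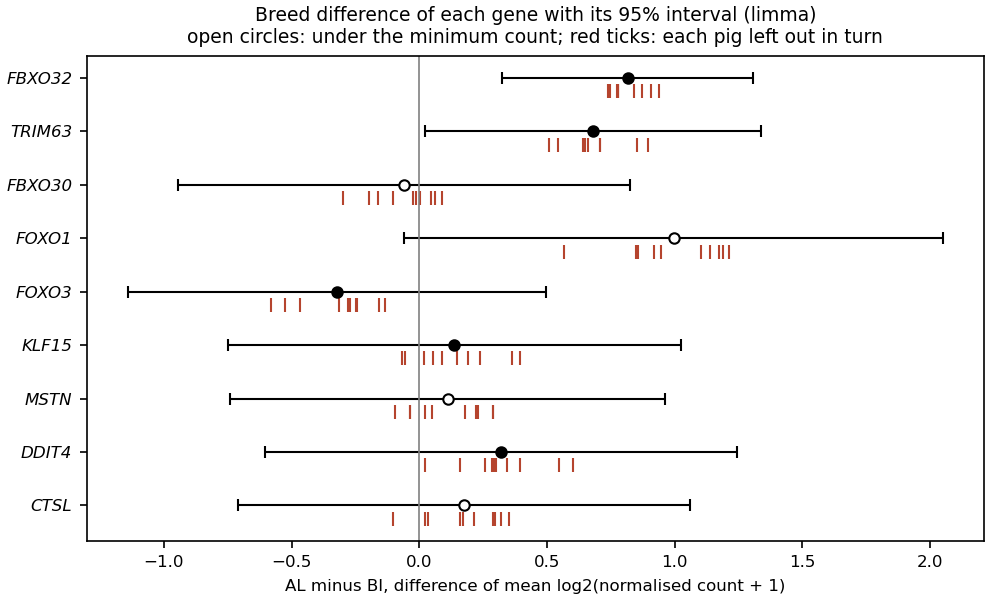
Difference of mean log2(normalised count + 1), AL minus BI (x axis), for each of the 9 genes (y axis), with its 95% interval from limma. Open circles are genes under the minimum count, red ticks are the difference with each pig left out in turn, and the intervals of FBXO32 (0.32 to 1.31) and TRIM63 (0.02 to 1.34) lie above 0.

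The spread between pigs was close to counting error in some genes and beyond it in others. With the reads counted, chance sampling alone would give FBXO32 a coefficient of variation of 15.3% in AL and 19.9% in BI, and the observed values were 19.6% and 23.7%. TRIM63 varied more, at 36.9% in AL (counting 16.3%) and 35.0% in BI (counting 20.7%). FOXO3 reached 59.4% in AL (counting 26.2%) but 28.3% in BI (counting 23.7%), and DDIT4 38.5% (counting 29.1%) and 62.5% (counting 30.4%). In the low genes counting error itself was large. FOXO1 had 47.0% in AL (counting 40.2%) and 71.0% in BI (counting 57.7%), and FBXO30 59.8% in AL and 21.4% in BI (counting 40.8% in both).

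Per 1000 exon bases of the RefSeq models, the ligases FBXO32 (25.8 normalised counts over the 10 pigs) and TRIM63 (25.3) had the highest counts, and their ranges overlapped. DDIT4 (6.01) and CTSL (4.67) followed, and no pig reached in DDIT4 (at most 11.1) the lowest pig of TRIM63 (12.2). KLF15 (2.17) and FOXO3 (2.15) came next, then FOXO1 (0.830), FBXO30 (0.630) and MSTN (0.610). From DDIT4 down, the range of each gene over the pigs overlapped that of the next, and differences between genes within a pig were not tested. The RefSeq models of FBXO32 and TRIM63 hold only 1283 and 1171 exon bases and the counting used Ensembl models, so a longer transcript would lower their values per length.

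The covariation of the other 8 genes with FBXO32 was then computed over the 10 pigs on the log2 scale. TRIM63 followed FBXO32 most closely, with Pearson's r = 0.65 (permutation p = 0.0437, adjusted p = 0.597 over 3565 genes) and Spearman's rho = 0.65 (permutation p = 0.0497). Without BI42 and AL49, the pigs farthest from the median of FBXO32, r was 0.66. With both genes centred within breed, r was 0.34 (permutation p = 0.358), so the relation was weaker among pigs of one breed than over both. Of all genes, 0% passed an adjusted p of 0.05 for correlation with FBXO32, where 158 genes with a positive r (4.43%) and 136 with a negative r reached an unadjusted permutation p under 0.05.

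FOXO1 had r = 0.59 with FBXO32 (permutation p = 0.0614) and rho = 0.53 (p = 0.122, permutation). Without the 2 farthest pigs its r was 0.22, so the relation rests on those pigs, and centred within breed it was 0.31. BI42 had the lowest FBXO32 value and no FOXO1 read, whereas AL49 and AL52 were high in both. KLF15 had r = 0.33, rho = 0.48 and 0.44 within breed, with permutation p-values of 0.338, 0.166 and 0.230, and r = 0.04 without the 2 pigs. DDIT4 had r = 0.19 (permutation p = 0.606). Over all genes, r with FBXO32 had a median of -0.03 and quartiles of -0.29 and 0.27.

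FOXO3 did not follow FBXO32, with r = -0.19 (permutation p = 0.581) and rho = -0.03. It was at 28.1 in AL49, the pig with the most FBXO32, but at 7.44 and 8.01 in AL46 and AL52. Without the 2 farthest pigs r was -0.51 (permutation p = 0.182), and within breed 0.06. FBXO30 (r = -0.19), CTSL (-0.21) and MSTN (-0.10) also had values near 0, with permutation p from 0.569 to 0.786. Centred within breed CTSL had r = -0.63 (permutation p = 0.0690). FOXO1 and KLF15 had r = 0.58 with each other.

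**Figure D3:**
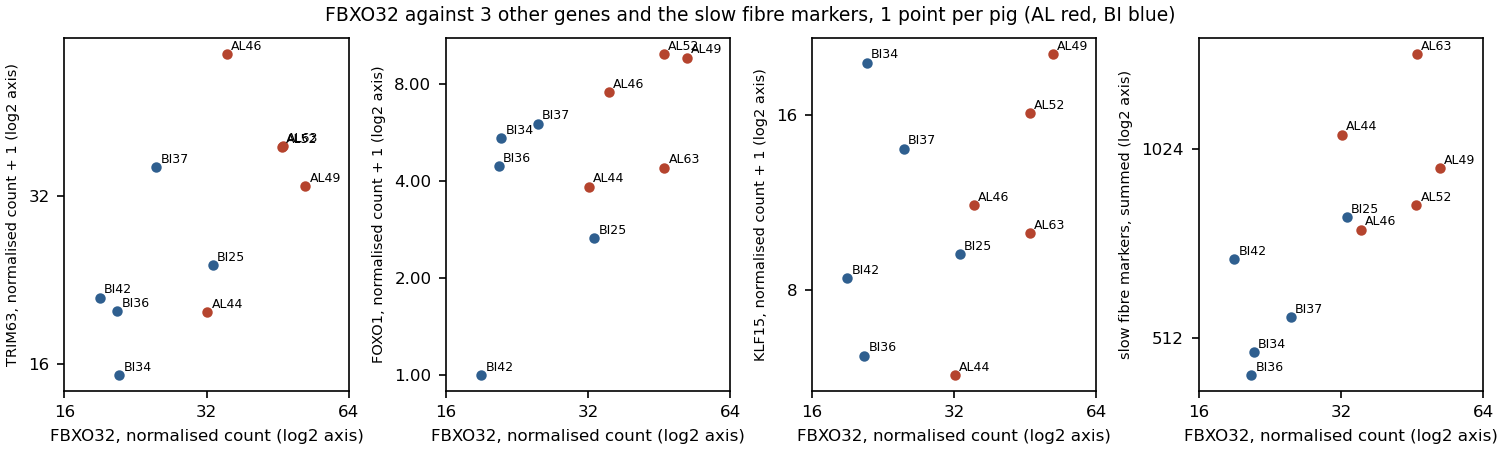
FBXO32 (x axis, normalised count, log2 axis) against TRIM63, FOXO1, KLF15 (y axes, normalised count + 1, log2 axes) and the summed slow fibre markers (log2 axis), with 1 point per pig, AL in red and BI in blue. The BI pigs lie to the left except BI25, and AL44 has low TRIM63 and KLF15 for its breed.

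**Figure D4:**
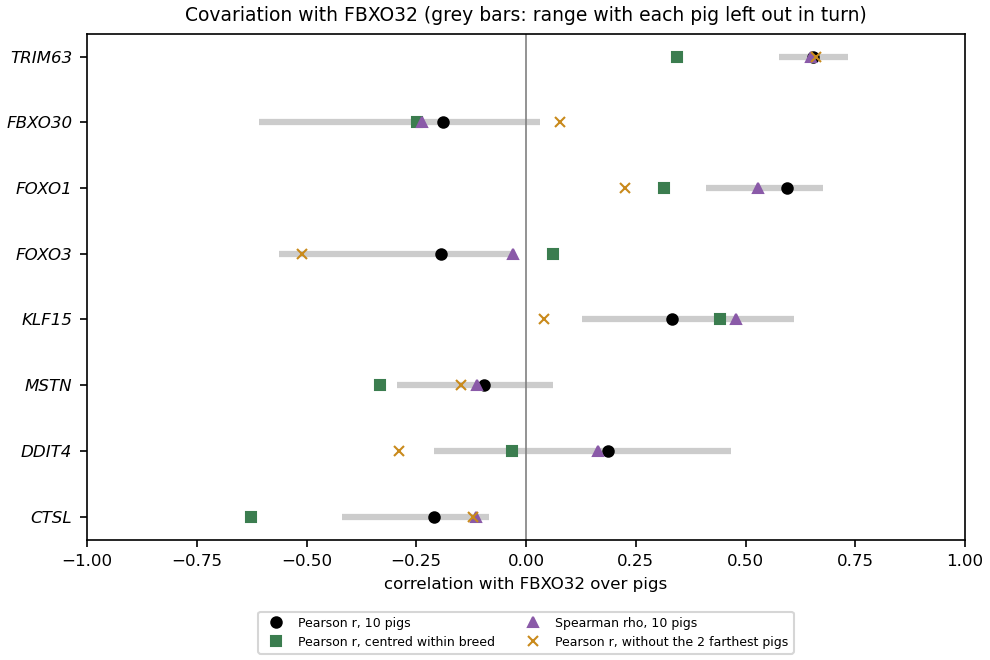
Correlation with FBXO32 (x axis) of the other 8 genes (y axis) over all 10 pigs, centred within breed, as Spearman's rho and without the 2 farthest pigs, with grey bars for the range when each pig is left out. TRIM63 stays between 0.34 and 0.73 in all of these, while FOXO1 goes down to 0.22 and DDIT4, FOXO3, FBXO30 and MSTN cross 0.

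The pigs with more FBXO32 also had more slow fibre marker counts. The summed normalised counts of 6 slow fibre genes ran from 761 to 1449 in AL (median 955) and from 447 to 797 in BI (median 553), and the breeds overlapped only in that AL46 lay below BI25. Their correlation with FBXO32 was r = 0.78 (permutation p = 0.00861, adjusted p = 0.172 over 20 relations) with rho = 0.77 (permutation p = 0.0126), 0.86 without BI42 and AL49, and 0.38 within breed (permutation p = 0.305). With TRIM63 it was 0.42 (permutation p = 0.231). Fast fibre markers (8 of 8 in the table) ran from 14798 to 26980 in AL and from 22704 to 34881 in BI, and had r = -0.31 with FBXO32. AL44, the pig with the lowest FBXO32 and TRIM63 in AL, was also the lowest in the muscle fibre sum, at 16440 against 23842 to 34759 in the other AL pigs. The part of fibre type in the FBXO32 difference was not tested.

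Markers of other cell types were summed in the same way. Red cell genes (2 of 3 in the table) summed to 2.26 to 10.2 in AL and 7.39 to 16.5 in BI and had r = -0.64 with FBXO32 (permutation p = 0.0465, adjusted p = 0.393). Leukocyte genes, of which CSF1R (mean 276) made up most and CD3E and MS4A1 were at 0 in every pig, summed to 253 to 389 in AL and 251 to 397 in BI, with r = -0.53 over all pigs (permutation p = 0.115) and -0.79 within breed (permutation p = 0.0173). Fibroblast genes summed to 14.2 to 103 in AL and 18.0 to 43.3 in BI and had r = 0.61 with TRIM63 (permutation p = 0.0589). Endothelial genes, of which EGFL7 (mean 2100.2) made up nearly all and PECAM1 (3.33) and CDH5 (3.10) were low, summed to 1375 to 2902 in AL and 1652 to 2745 in BI, with r = 0.24 with FBXO32 (permutation p = 0.504). Adipocyte genes, of which PLIN4 (mean 89.6) made up most and ADIPOQ (0.284), LEP (0.11) and FABP4 (1.48) were near 0, ran from 76.5 to 156 in AL and from 68.7 to 180 in BI, with r = 0.16 with FBXO32. The part of these cells in the results was not tested.

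The genes most like FBXO32 were sought among 1583 genes with a mean of at least 50. The highest r belonged to DAAM2, a formin of Wnt signalling (r = 0.91, with 96.9 ± 26.8 normalised counts in AL and 49.1 ± 10.1 in BI), and to SNAPC5, a subunit of the complex that starts small nuclear RNA genes (r = 0.88). PPP2R1B, a scaffold subunit of protein phosphatase 2A, had r = 0.87 with 384 ± 36 in AL and 323 ± 46.7 in BI, and ENSSSCG00000033318 had r = 0.85. CNNM3, of a family of magnesium transport proteins, had r = 0.84 but ran from 9.44 to 552 in AL. In these 5 genes the mean was higher in AL, as in FBXO32.

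The lowest r belonged to INTS11, the RNA-cutting subunit of Integrator (r = -0.91, 41.4 ± 11.2 in AL and 133 ± 28.1 in BI, SD, n = 5 each), and to JSRP1, a protein of the sarcoplasmic reticulum junction (r = -0.90). LSP1, an actin-binding protein of leukocytes, had r = -0.89 and means of 236 ± 29.8 and 494 ± 158. TCAP (telethonin), which caps titin at the Z-disc, had r = -0.87, with 205 ± 61.4 in AL and 344 ± 115 in BI, and RER1, which returns proteins to the endoplasmic reticulum, had r = -0.85. None of the 10 passed the adjustment over all genes (adjusted permutation p of 0.385 to 0.485). Their r is over both breeds, so that it includes the difference between the breed means. SNAPC5 overlaps MAP2K1 by 10203 bases and PPP2R1B overlaps SIK2 by 4480 bases on the opposite strand. The study lists DAAM2, CNNM3, INTS11 and LSP1 among the genes it found to differ in these pigs.

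The wider pathway was read from 10 lists with 218 genes, of which 198 were in the table and 90 were tested. None of the 90 passed the adjusted threshold in limma, while 6 (6.67%) had an unadjusted p under 0.05 with higher values in AL and 2 (2.22%) with higher values in BI, against 4.63% and 3.93% of all genes. Their median log2 difference was 0.11, against -0.02 over all genes tested. Without AL44 the counts were 11 (12.2%) and 5 (5.56%), against 6.59% and 7.91% of all genes, and 1 gene, MAP3K14, passed (limma adjusted p = 0.0279).

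Among the ubiquitin ligases 9 of 23 were tested, with a median of 0.30, and FBXO32 and TRIM63 were the ones with an unadjusted p under 0.05. Of the proteasome and ubiquitin genes that act after the ligases, 21 of 41 were tested, with a median of -0.03. In AL 10 of the 21 were higher, against 47% of all genes tested. Here the unadjusted p passed in the other direction. PSMA5, an alpha subunit of the core particle, had 589 ± 55.2 normalised counts in AL and 777 ± 104 in BI (log2 difference -0.39, exact permutation p = 0.0317, limma adjusted p = 0.359). PSMC4, an ATPase of the regulatory particle, had 13.2 ± 10.6 and 22.2 ± 7.32 (-0.87, exact permutation p = 0.0952, limma adjusted p = 0.559). The 4 other AL pigs had 7.92 to 9.30 in PSMC4 and AL44 had 32.1, and leaving AL44 out gave a log2 difference of -1.23 (limma adjusted p = 0.0724).

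The insulin, IGF1, AKT and mTOR list had 11 of 26 genes tested, a median of 0.11, and IRS2 as its gene with an unadjusted p under 0.05. IRS2, a docking protein of the insulin receptor and a FoxO target, had 14.8 ± 6.23 normalised counts in AL and 7.70 ± 4.21 in BI (log2 difference 0.88, exact permutation p = 0.0556, limma adjusted p = 0.531). In the list of FoxO factors and their regulators (9 of 17 tested, median 0.10) no gene reached it with all pigs. The smallest p there was that of PRKAG3, the muscle gamma subunit of the energy sensor AMPK, with 22.1 ± 11.1 in AL and 31.5 ± 5.93 in BI (-0.60, exact permutation p = 0.103). AL44, at 38.7, was the highest of the 10 pigs in PRKAG3, and without it the log2 difference was -0.83 and the limma p was 0.0116 unadjusted and 0.185 adjusted.

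Of the glucocorticoid response genes 10 of 18 were tested, with a median of 0.28. In AL 7 of the 10 were higher, against 58 of 90 (64.4%) over the 10 lists and 47% of all genes tested. PER1, a repressor of the circadian clock that glucocorticoids induce, had 28.2 ± 8.17 in AL and 16.1 ± 5.18 in BI (log2 difference 0.79, exact permutation p = 0.0317, limma adjusted p = 0.478), and 4 AL pigs lay above every BI pig. Its r with FBXO32 over both breeds was 0.73. PER1 is named for a breed difference in the same direction as that of FBXO32, and this r includes that difference. The medians of r with FBXO32 were 0.29 for the glucocorticoid list and 0.34 for the other ubiquitin ligases. In the remaining lists they ran from 0.19 to 0.31, except for -0.05 in the proteasome list. A positive median was thus not particular to these 2 lists, and all lists were chosen with earlier results of these data known. The myostatin and activin list (6 of 20 tested, median 0.19) had no gene past the unadjusted threshold with all pigs. LTBP3, which holds latent TGF-beta in the matrix, came closest with 624 ± 89.9 and 508 ± 69.9 (0.29, exact permutation p = 0.0714). Without AL44 the difference in LTBP3 was 0.34, with a limma p of 0.0475 unadjusted and 0.338 adjusted.

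The lysosome and autophagy list had 11 of 28 genes tested, a median of 0.21, and CTSD past the unadjusted threshold. CTSD, the aspartic protease cathepsin D, had 35.9 ± 12.2 in AL and 18.8 ± 12.7 in BI (log2 difference 1.03, SE 0.37, exact permutation p = 0.0397, limma adjusted p = 0.373). BI34 reached 40.8, within the AL range of 22.7 to 55.4, while the other BI pigs lay between 8.45 and 17.0. The calpain and caspase list (5 of 8 tested, median 0.18) had no such gene, and CAPN1, the calcium-dependent protease of post-mortem tenderisation, had 20.3 ± 4.03 and 15.5 ± 4.83 (0.40, exact permutation p = 0.135).

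The NF-kB and TWEAK list had only 3 of 16 genes tested. MAP3K14, the kinase that starts the non-canonical NF-kB pathway, had 20.6 ± 6.91 normalised counts in AL and 5.79 ± 1.92 in BI, with all 5 AL pigs (13.2 to 30.7) above all BI pigs (3.17 to 7.76). Its log2 difference was 1.66 (SE 0.33, exact permutation p = 0.00794, the smallest possible, and limma adjusted p = 0.118). The study reported MAP3K14 as higher in AL in these reads, past its adjusted threshold, and as significantly higher by qPCR in the same pigs. The values here come from the same reads, so that they are not independent evidence of it. The r of MAP3K14 with FBXO32, 0.82, is over both breeds and includes the breed difference of both genes. In the stress and denervation list (6 of 22 tested, median 0.09) no gene passed. FGF21, a stress hormone that muscle can release, had 18.8 ± 16.8 in AL and 27.5 ± 3.93 in BI (-0.84, exact permutation p = 0.119). AL44 had 48.1, and without it the log2 difference was -1.25 (limma adjusted p = 0.0552).

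**Figure D5:**
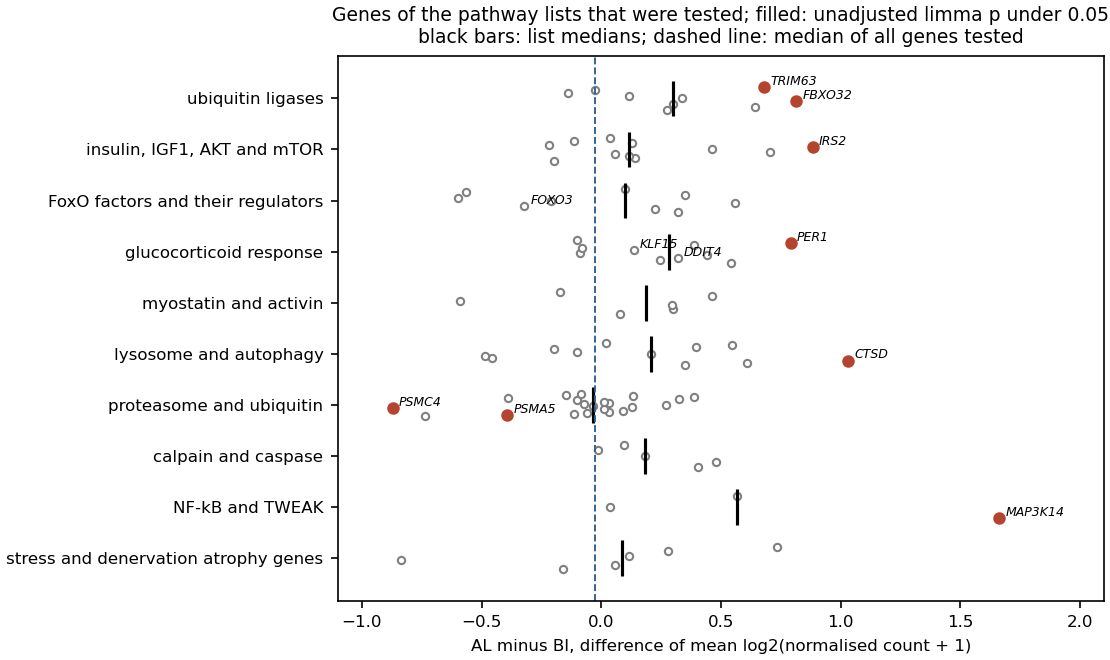
Difference of mean log2(normalised count + 1), AL minus BI (x axis), for the tested genes of the 10 lists (y axis), filled where the unadjusted limma p was under 0.05. Black bars are list medians, from -0.03 in the proteasome list to 0.57 in the NF-kB and TWEAK list with 3 genes, and the dashed line is the median of all genes tested (-0.02).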

How the data were processed

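1 library of longissimus lumborum RNA was made from each of 10 pigs, which were assigned to AL or BI by the names in the sample labels. The authors used Trim Galore 0.5.0 for trimming, HISAT2 2.1.0 for alignment against Sscrofa11.1 with the annotation of Ensembl release 94, SAMtools 1.9 for the alignment files, HTSeq 0.11.1 for gene counts and DESeq2 for normalisation. The signal values deposited by the authors are gene counts divided by the size factor of each pig. The log2 fold changes, standard errors, Wald statistics and p-values of the authors' own comparison stand in the same table and were not used. Dividing every column by its lowest non-zero value gave whole numbers (within 0.001) for 100% of the values, which were taken as the reads.

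Genes with a mean of at least 10 were tested with limma 3.58.1 in R 4.3.3 (trend, no covariate) on log2(normalised count + 1), with Benjamini-Hochberg adjustment and a threshold of 0.05. Single genes also had an exact permutation test, and correlations 100000 permutations. With 1 library per pig, p-values measure the spread between pigs, which includes counting error. Intervals from counts and the floor of 3 reads cover counting error only. Alternatives were pseudocounts of 0.1 and 10, other minimums, scaling without the 10 highest genes, DESeq2 1.42.0, edgeR 4.0.16 and limma-voom on the recovered reads, and each pig left out in turn. The statistics were also run on simulated data, in which every change was larger than the breed difference of any member. Smaller changes were not simulated. No sequencing batch or date is given in the sources used here.

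The members, lists, markers and naming rule were chosen with earlier results of these data known. Named are all 9 members, in each pathway list the genes with an unadjusted limma p under 0.05 (otherwise the gene with the smallest p), the 5 highest and 5 lowest in r with FBXO32 among genes with a mean of at least 50, and genes opposite a member within 5 kb. MAP2K1, SIK2, RABEP2, ATP2A1, CTSF and ACTN3 were added after values were seen. Symbols were found for 14857 of 25880 identifiers, and positions and promoter sequences come from RefSeq, matched by symbol. Figures were made with Python 3.11.15 and matplotlib 3.10.9, and other tables with numpy 2.4.6, scipy 1.17.1 and pandas 2.3.3.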

Additional observations from a re-analysis of the deposited data

Results flagged for a closer look

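Of 18 groups of 5 pigs (9 genes in each breed), 1 had a pig whose gap to the nearest other pig was above Dixon's critical value of 0.71 times the range. CTSL, the lysosomal protease cathepsin L, was at 15.1 normalised counts (16 reads) in AL44, against 3.56 to 6.79 in the other AL pigs. Chance flags about 1 in 20 such groups, which is near the 1 of 18 seen here. The same pig had the lowest values of its breed in FBXO32, TRIM63, FOXO1 and KLF15.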

How the results depend on the processing

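Of the 289 results recomputed under alternatives, 256 kept their direction and side of the threshold or, for counts of genes, stayed near the main count. Every result for a single gene began above the threshold, so staying there says little about stability. The count of genes with an adjusted p under 0.05 was 1 with limma, edgeR and limma-voom, 2 with a pseudocount of 10, 40 without a minimum count and 48 with DESeq2. With both breeds required to reach a mean of 50, limma called 0 genes, where 112 had an unadjusted p under 0.05. Leaving out 1 pig gave 1 to 38 genes, with 38 without AL44, 4 without AL52 or BI37 and 3 without BI36. The pathway counts without AL44 (11 higher in AL and 5 in BI) were chosen after the data were seen. The FBXO32 difference stayed between 0.63 and 0.94 and its adjusted p above 0.05 in the 7 other settings that tested it and the 10 fits with 1 pig left out. A pseudocount of 10 turned the FBXO30 difference to 0.0024. The correlation with FBXO32 changed sign for FOXO3 within breed (0.062), for DDIT4 within breed (-0.032) and without the 2 farthest pigs (-0.29), and for FBXO30 without these pigs (0.078). With each pig left out in turn, the difference ran from -0.30 to 0.088 in FBXO30, -0.067 to 0.39 in KLF15, -0.095 to 0.29 in MSTN and -0.10 to 0.35 in CTSL. The correlation ran from -0.61 to 0.031 for FBXO30, -0.29 to 0.062 for MSTN, -0.21 to 0.47 for DDIT4 and 0.41 to 0.68 for FOXO1, whose permutation p was under 0.05 without AL63, BI25 or BI34 (0.0398 to 0.0479). In each case the cause was not tested. The low number of assigned reads limits FBXO30, FOXO1, MSTN and CTSL, with 7 to 67 reads over all pigs. No paired analysis was possible because each pig belongs to 1 breed and the sources used here give no matching of pigs between the breeds.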
